A study of Capra hircus with 11 samples.

Results

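The miRNAs miR-193, miR-365 and miR-455 were followed in the omental fat of lactating goats (Capra hircus), the fat of the abdominal fold that hangs from the stomach. They were taken by name, as every mature miRNA that carries a number of theirs, with any letter or arm, and the rule found 8 of the 637 names listed. These were bta-miR-193b, bta-miR-193a-3p, bta-miR-193a-5p, bta-miR-193a with no arm given, bta-miR-365-3p, bta-miR-365-5p, bta-miR-455-3p and bta-miR-455-5p. The prefix stands for the bovine names that the files use and is left out from here on. The goats were of the Alpine breed and near the peak of milk yield, 48 ± 2 days after kidding at the start, and all had eaten the same hay diet of 35% forage and 65% concentrate for 2 weeks. In the last 48 h before slaughter 5 control goats kept free access to that diet and 6 goats were given no feed. Each small RNA library came from a separate goat, so every spread given is between animals, and replicate numbers, given here in accession order, only name goats within a group.

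These miRNAs are best known from brown fat, the fat that burns lipid to make heat. In mice miR-193b and miR-365 are made from neighbouring hairpins, are raised by the brown-fat regulator PRDM16, and favour brown over muscle fate in cultured precursors, in part by lowering RUNX1T1, although mice without the pair were later found to make brown fat. miR-455, induced by cold in mouse brown fat, lowers RUNX1T1 and Necdin and raises the thermogenic coactivator PGC-1α. In human white fat cells miR-193b is known for lowering the chemokine CCL2. A hairpin gives 2 mature strands, named 5p and 3p for the arm they come from, and the strand kept by the silencing complex is usually the more abundant.

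In the human genome miR-193b lies beside a first copy of miR-365 between MKL2 and PARN, and miR-193a lies near a second copy on another chromosome, so the mature miR-365-3p cannot be assigned to either neighbour. The RefSeq gene table of the goat (assembly ARS1.2) held 3 miRNA genes with these numbers, on 3 chromosomes. Its MIR193A stood between MKL2 and PARN, the place of human MIR193B. Its MIR365 stood between COPRS and RAB11FIP4, the place of the other human pair, and its MIR455 inside the collagen gene COL27A1, as in humans. The closeness of miR-193b and miR-365 is therefore taken from other species, and which goat gene each bovine name counts was not tested. No mature sequences were used here.

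The libraries held 16974441 to 25389788 miRNA reads. The authors' deposited signal, a read count divided by 1 factor per library, is called normalised reads. The 6 miRNAs fixed as markers of fat and mesenchymal tissue, among them miR-143 and miR-148a, took 50.0% to 62.9% of reads. Liver miR-122 stood at 1.08 to 147 normalised reads, and the neural miR-124a at 0 to 2.66. Red cell markers summed to 116344 to 331505 normalised reads in controls and 131837 to 348041 after feed deprivation, and epithelial markers to 150 to 610 and 164 to 741, with miR-200b not listed in feed-deprived replicate 1. The endothelial markers summed to 532670 to 639644 and 502282 to 611349, and the muscle markers to 848 to 4557 and 676 to 3425. The fat and mesenchymal markers themselves summed to 10393508 to 15419399 and 7699869 to 13943378, so that for each of these lists the groups overlapped. For the leukocyte list, whose sums are given with miR-193b below, the groups did not overlap.

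Together the 8 miRNAs were a small part of the libraries, between 0.0523% and 0.108% of reads. Most of it, 82.3% of their reads, came from miR-193b (56.6%) and miR-365-3p (25.7%). By mean CPM (reads scaled to a common library total) miR-193b ranked 69th and miR-365-3p 92nd among the 637 names. The arms of miR-193a ranked 127th (5p) and 129th (3p), those of miR-455 147th (3p) and 163rd (5p), and miR-365-5p 290th. Mature miRNAs are nearly equal in length, but adapters join some sequences more readily than others, so these ranks hold for this protocol and are no molar amounts.

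The order of the levels was the same in every goat at its upper end. miR-193b was above miR-365-3p, and miR-365-3p above both arms of miR-193a, in 11 of 11 libraries. Below them the order was not fixed. miR-193a-5p was above miR-193a-3p in 7 of 11 libraries, miR-193a-3p above miR-455-3p in 5 of 11, and miR-455-3p above miR-455-5p in 9 of 11. miR-365-5p, the minor arm of its hairpin, was again below both arms of miR-455 in 11 of 11. The name miR-193a with no arm had 2 reads in all, 1 each in feed-deprived replicates 5 and 6, and 0 in the other 9 libraries, where a count of 0 allows up to 0.118 to 0.177 CPM (3 reads, counting error only).

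**Figure D1:**
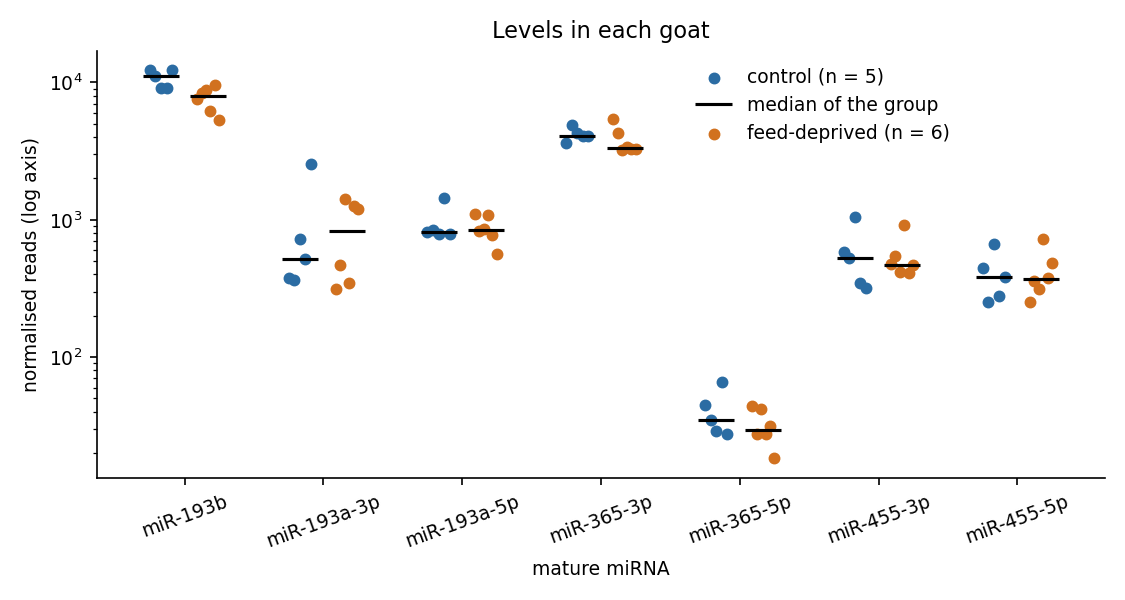
Normalised reads (log axis) of the 7 miRNAs with more than single reads, 1 point per goat, for 5 controls and 6 feed-deprived goats, with a bar at each group's median. The groups overlap for every miRNA, and for miR-193b 5 of 6 feed-deprived goats lie below all controls on this scale (2 of 6 in CPM).

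No miRNA of the 3 numbers passed the test for a difference between fed and feed-deprived goats. All but miR-193a had enough reads to be tested, 7 of the 360 miRNAs in the fit. limma, a linear model on log2(normalised reads + 1), with p-values adjusted over all 360, called 0 of the 7 at an adjusted p under 0.05. At an unadjusted p under 0.05 it counted 1 of the 7, miR-193b. edgeR and DESeq2 on the recovered reads also called 0 and had the same number, 1, at an unadjusted p under 0.05. For comparison limma and edgeR each called 3 of the 360, or 0.833%, and DESeq2 called 9, or 2.5%, all of them higher. An unadjusted p under 0.05 was found for 42 of the 360, or 11.7%, in limma and in edgeR, and for 41, or 11.4%, in DESeq2. The groups did not overlap for 6 of the 360, or 1.67%, and for 0 of the 7. The median log2 fold change of those 7 was -0.10, against 0.0040 over the 360.

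miR-193b, the most abundant of them, had a lower mean in feed-deprived goats but did not pass the adjusted test. Controls 1 to 5 held 12235, 11219, 9165, 9041 and 12284 normalised reads, and the feed-deprived goats ran from 5361 through a median of 8002 to 9610. Of the 6 feed-deprived goats, 5 lay below every control. Replicate 5, at 9610, was above the 2 lowest controls, so the groups overlapped. This count rests on the deposited scaling. In CPM, with library totals as the only scaling, controls ran from 372 to 647 and feed-deprived goats from 247 to 493, and 2 of 6 lay below every control. The group means in normalised reads were 10789 ± 1597 (SD, n = 5) and 7664 ± 1620 (SD, n = 6), and the feed-deprived level was 0.703 times that of controls on the log2(value + 1) scale. The log2 fold change, feed-deprived over control, was -0.51 ± 0.17 (SE), with a 95% interval of -0.88 to -0.14 and a limma p of 0.0108 (limma adjusted p = 0.258).

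By that p miR-193b stood 15th among the 360 miRNAs, and it was 1 of 12 with a negative value and an unadjusted p under 0.05, or 3.33% of those tested. Its value stayed negative under every alternative and without any 1 goat. With library totals as the only scaling it was -0.35 (limma adjusted p = 0.598, unadjusted p = 0.150), and with upper-quartile factors -0.69 (limma adjusted p = 0.0954). These scalings moved the median of all miRNAs to 0.16 and -0.17. Leukocyte markers moved in the other direction between the same groups. The 5 markers, among them miR-142-5p and miR-223, summed to 23339 to 32669 normalised reads in controls and 36462 to 53912 after feed deprivation. These sums did not overlap. Their largest part was miR-142-5p, with means of 16568 in controls and 28704 after feed deprivation. It was also the only 1 of the 5 whose own groups did not overlap. All 5 leukocyte markers had positive log2 fold changes. Of them limma called 1, miR-142-5p (limma adjusted p = 0.0371), against 0.833% of all 360. Values were positive for 1 of 6 fat and mesenchymal markers, 0 of 2 endothelial and 3 of 3 red cell markers. They were also positive for 2 of 4 tested muscle and 3 of 4 tested epithelial markers. Of these other lists limma called 0. The part of any of these markers in the values of miR-193b was not tested. In pieces of whole fat, fewer cells of a type and less of a miRNA per cell cannot be told apart.

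miR-365-3p, the partner of miR-193b in other species, had a smaller difference. Controls 1 to 5 held 3628, 4866, 4291, 4087 and 4071 normalised reads, and the feed-deprived goats ran from 3237 through a median of 3328 to 5437. Of the 6 feed-deprived goats 4 lay below all controls, at 3237 to 3394, while replicate 1 was above all of them. In CPM 3 of 6 lay below and 2 of 6 above all controls. The means were 4188 ± 449 (SD, n = 5) and 3807 ± 889 (SD, n = 6). The log2 fold change was -0.16 ± 0.17 (SE), with a 95% interval of -0.52 to 0.20 (limma adjusted p = 0.834), and 0.0028 with library totals as the only scaling. Without feed-deprived replicate 1, the goat with the highest level, it was -0.27.

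The other arm, miR-365-5p, had 21 to 73 reads per library. It stood at 40.4 ± 15.7 normalised reads in controls (SD, n = 5) and 31.8 ± 9.76 in feed-deprived goats (SD, n = 6). The groups overlapped, and the fold change came to -0.32 ± 0.30 (SE) on the log2 scale (limma adjusted p = 0.80), or -0.13 without control replicate 4, whose 65.8 normalised reads were the highest. Within libraries miR-365-3p was 61.2 to 169 times as abundant as miR-365-5p, so the 3p arm was the major strand in every goat.

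The ratio of miR-193b to miR-365-3p does not depend on how a library is scaled, and asks whether the pair moved alike. It was 3.37, 2.31, 2.14, 2.21 and 3.02 in controls 1 to 5. After feed deprivation it was 1.40, 1.98, 2.72, 1.83, 2.95 and 1.64 in replicates 1 to 6. Of the 6 feed-deprived goats 4 had a lower ratio than every control, and replicates 3 and 5 lay among the controls. The log2 ratio was 1.36 ± 0.30 in controls (SD, n = 5) and 1.01 ± 0.42 in feed-deprived goats (SD, n = 6). The difference, -0.35 ± 0.22 (SE), did not pass (two-sided exact permutation p = 0.156, adjusted over 5 ratios 0.779), being above the SD of controls and below that of feed-deprived goats. The test could have given a p as low as 0.0022. These data therefore do not show that the pair responded unequally, nor that it moved alike.

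Across the 11 goats the levels of miR-193b and miR-365-3p were not detectably related. Pearson's r of the log2 levels was 0.26 (permutation p = 0.443) and Spearman's rho 0.17 (permutation p = 0.615), with adjusted p-values of 0.664 and 0.710 over the 15 pairs of the 6 more abundant arms. Leaving out feed-deprived replicates 1 and 3, the goats farthest from the median of miR-365-3p, gave an r of 0.52. Leaving out feed-deprived replicates 4 and 6, the farthest from the median of miR-193b, gave -0.25. With library totals as the only scaling r was 0.48 (permutation p = 0.137, adjusted 0.412). With the group means removed r was 0.036, and within the 6 feed-deprived goats it was 0.11 (exact permutation p = 0.890). A value within the 5 controls is not given, since 5 goats are too few.

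**Figure D2:**
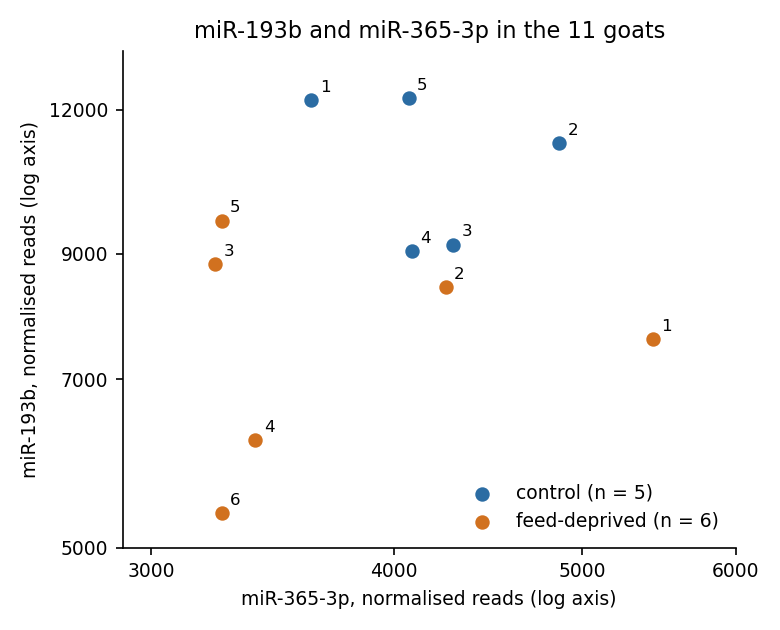
Normalised reads of miR-193b against miR-365-3p (both axes log) in 5 control and 6 feed-deprived goats, each point labelled with its replicate number. Feed-deprived replicate 1 has the most miR-365-3p, 5437 normalised reads, with 7589 of miR-193b, and control replicate 1 has 3628 and 12235.

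Ranked by likeness to miR-193b or to miR-365-3p, the other of the pair came near the middle of 359 miRNAs. Likeness was the correlation of log2 levels over the 11 libraries with group means removed, a description that shares the scaling of each library among all miRNAs. Nearest to miR-193b among 359 others were miR-199b at r = 0.83, miR-2285ca at 0.79, miR-98 at 0.74, miR-628 at 0.74 and miR-331-3p at 0.72, and miR-365-3p came 174th. Nearest to miR-365-3p were miR-139 at 0.84, miR-15b at 0.82, miR-132 at 0.81, miR-425-5p at 0.81 and miR-339a at 0.77, and miR-193b came 169th. The neighbours were picked as the highest of 359, and the median r over those 359 was 0.019 for miR-193b and 0.020 for miR-365-3p. miR-193a-3p, whose seed is that of miR-193b in other mammals, came 113th for miR-193b (r = 0.20) and 318th for miR-365-3p (r = -0.50).

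miR-193a, the paralog of miR-193b, varied most between goats through its 3p arm. miR-193a-3p stood at 375, 362, 730, 521 and 2555 normalised reads in controls 1 to 5, and at 311, 466, 1421, 344, 1265 and 1205 in feed-deprived replicates 1 to 6. Its highest value was 8.21 times its lowest, against 1.68 times for miR-365-3p and 2.29 times for miR-193b. The means were 909 ± 932 (SD, n = 5) and 835 ± 513 (SD, n = 6), and the log2 fold change was 0.05 ± 0.56 (SE, 95% interval -1.15 to 1.25, limma adjusted p = 0.990). That interval holds changes of more than 2-fold either way. The sign was positive without control replicate 5, at 0.53, and negative without control replicate 2, at -0.17. It was also negative with upper-quartile factors and in both count tests.

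The 5p arm of the same hairpin was steadier and did not follow the 3p arm. miR-193a-5p stood at 814, 840, 787, 1442 and 791 normalised reads in controls 1 to 5, and ran from 566 through a median of 839 to 1103 after feed deprivation. Control replicate 4 was the highest goat, and 4 of 6 feed-deprived goats lay within the range of controls. The fold change came to -0.10 ± 0.22 (SE) on the log2 scale (limma adjusted p = 0.958), 0.06 without control replicate 4, and 0.06 with library totals as the only scaling.

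Which arm of miR-193a led changed from goat to goat. The ratio of 3p to 5p ran from 0.283 to 3.23, a spread of 11.4 times. In 4 goats, control replicate 5 and feed-deprived replicates 3, 5 and 6, the 3p arm was the more abundant, at 1205 normalised reads or more. In the other 7 goats it was the less abundant, at 730 or fewer. The log2 ratio was -0.44 ± 1.30 in controls (SD, n = 5) and -0.29 ± 1.30 in feed-deprived goats (SD, n = 6), a difference of 0.15 ± 0.79 (SE, two-sided exact permutation p = 0.842, adjusted 0.872). Across the 11 goats the arms had a negative r of -0.50 (permutation p = 0.121, adjusted 0.411, rho = -0.55 with permutation p = 0.0870, adjusted 0.356), and -0.60 without the 2 goats farthest in miR-193a-3p. Since miR-193a-3p and miR-193b differ by few bases in other mammals, reads of one could be counted as the other, which was not tested.

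The ratio of miR-193b to miR-193a-3p has as its denominator the miRNA that varied more between goats. This ratio ran from 4.81 to 32.5 in controls and from 4.45 to 24.3 after feed deprivation. The log2 ratio was 4.0 ± 1.13 (SD, n = 5) and 3.44 ± 0.999 (SD, n = 6), a difference of -0.56 ± 0.65 (SE, two-sided exact permutation p = 0.405, adjusted 0.872). miR-193b was the major form in every goat. miR-193a-3p over miR-365-3p had a log2 ratio of -2.64 ± 1.18 (SD, n = 5) and -2.43 ± 1.25 (SD, n = 6), a difference of 0.21 ± 0.74 (SE, two-sided exact permutation p = 0.760, adjusted 0.872).

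**Figure D3:**
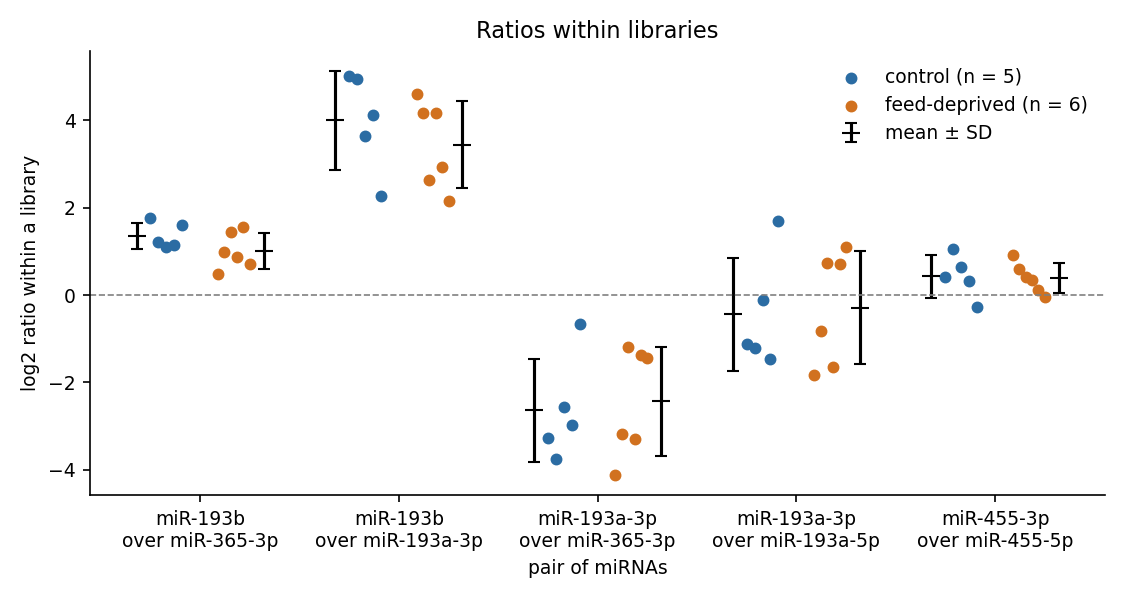
Log2 ratio within each library (vertical axis) for 5 pairs of miRNAs, 1 point per goat, with mean ± SD beside each group of 5 controls and 6 feed-deprived goats. The ratio of miR-193b to miR-365-3p spreads least in controls (SD 0.30), and the 3 ratios with miR-193a-3p have SDs of 0.999 to 1.30.

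miR-455, the cold-induced miRNA of the set, had nearly the same mean level in both groups, with wide intervals. Its 3p arm stood at 587, 531, 1045, 349 and 318 normalised reads in controls 1 to 5, and from 409 through a median of 472 to 913 after feed deprivation. Its 5p arm stood at 444, 254, 672, 279 and 385 in controls, and from 250 through 369 to 719. All 6 feed-deprived goats lay within the range of controls for the 3p arm and 4 of 6 for the 5p arm. The log2 fold change of miR-455-3p was 0.0029 ± 0.31 (SE, 95% interval -0.66 to 0.67, limma adjusted p = 0.996), and that of miR-455-5p 0.04 ± 0.30 (SE, 95% interval -0.61 to 0.70, limma adjusted p = 0.990). Neither value kept its sign when single goats were left out. miR-455-3p lay between -0.17 (without control replicate 5) and 0.26 (without control replicate 3), and miR-455-5p between -0.13 (without feed-deprived replicate 4) and 0.24 (without control replicate 3).

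A goat of each group carried the most miR-455. Control replicate 3 and feed-deprived replicate 4 had the highest levels of both arms, at 1045 and 913 normalised reads for the 3p arm and 672 and 719 for the 5p arm. Over the 11 goats the arms had an r of 0.72 (permutation p = 0.0135, adjusted over 15 pairs 0.202) and a rho of 0.44 (permutation p = 0.184, adjusted 0.459). Without those 2 goats r was 0.089, so the relation rested on them. The log2 ratio of 3p to 5p was 0.43 ± 0.49 in controls (SD, n = 5) and 0.39 ± 0.34 in feed-deprived goats (SD, n = 6), a difference of -0.04 ± 0.26 (SE, two-sided exact permutation p = 0.872, adjusted 0.872). The linear ratio ran from 0.826 to 2.08, so the arms of miR-455 were closer to equal than those of miR-365.

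Other miRNA names reported to act on brown or beige fat in mouse or human cells did not pass either. Every arm and lettered copy under a name was taken, and which form was reported was not checked. Of 16 tested miRNAs under names reported to promote it, from 11 of the 13 names listed, limma called 0 higher and 0 lower. Of these 16, 5 had a positive and 11 a negative value, with a median log2 fold change of -0.07. Of 14 tested miRNAs under names reported to restrain it, from all 12 names listed, limma also called 0 higher and 0 lower. These 14 had 5 positive and 9 negative values and a median of -0.07. For miR-149 the 5p arm was tested and the 3p arm was not. Over all 360 miRNAs limma called 3, or 0.833%, so 0 called in lists this short does not set them apart from the rest. Of the 360, 183 were positive and 177 negative, with a median of 0.0040. At an unadjusted p under 0.05 limma counted 1 of the 16 and 2 of the 14, against 11.7% of all tested.

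The smallest p-values of the promoting list belonged to miR-196b and miR-196a. Of these, miR-196a is known in mice for turning white fat precursors beige through Hoxc8. The log2 values were 1.15 for miR-196b (limma adjusted p = 0.252) and 0.53 for miR-196a (limma adjusted p = 0.452). miR-378, encoded in the gene of the coactivator PGC-1β and reported to expand brown fat in mice, followed at -0.21 (limma adjusted p = 0.584). Those of the restraining list were miR-27a-5p, the minor arm of a hairpin whose 3p arm lowers PRDM16, at 0.96 (limma adjusted p = 0.324), the immune miRNA miR-155 at 0.40 (limma adjusted p = 0.423) and miR-149-5p at -0.39 (limma adjusted p = 0.474). The 3p arm, miR-27a-3p, was at 0.0012. Among the lists and the 7 miRNAs with the 3 numbers together, miR-193b had the most negative value.

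**Figure D4:**
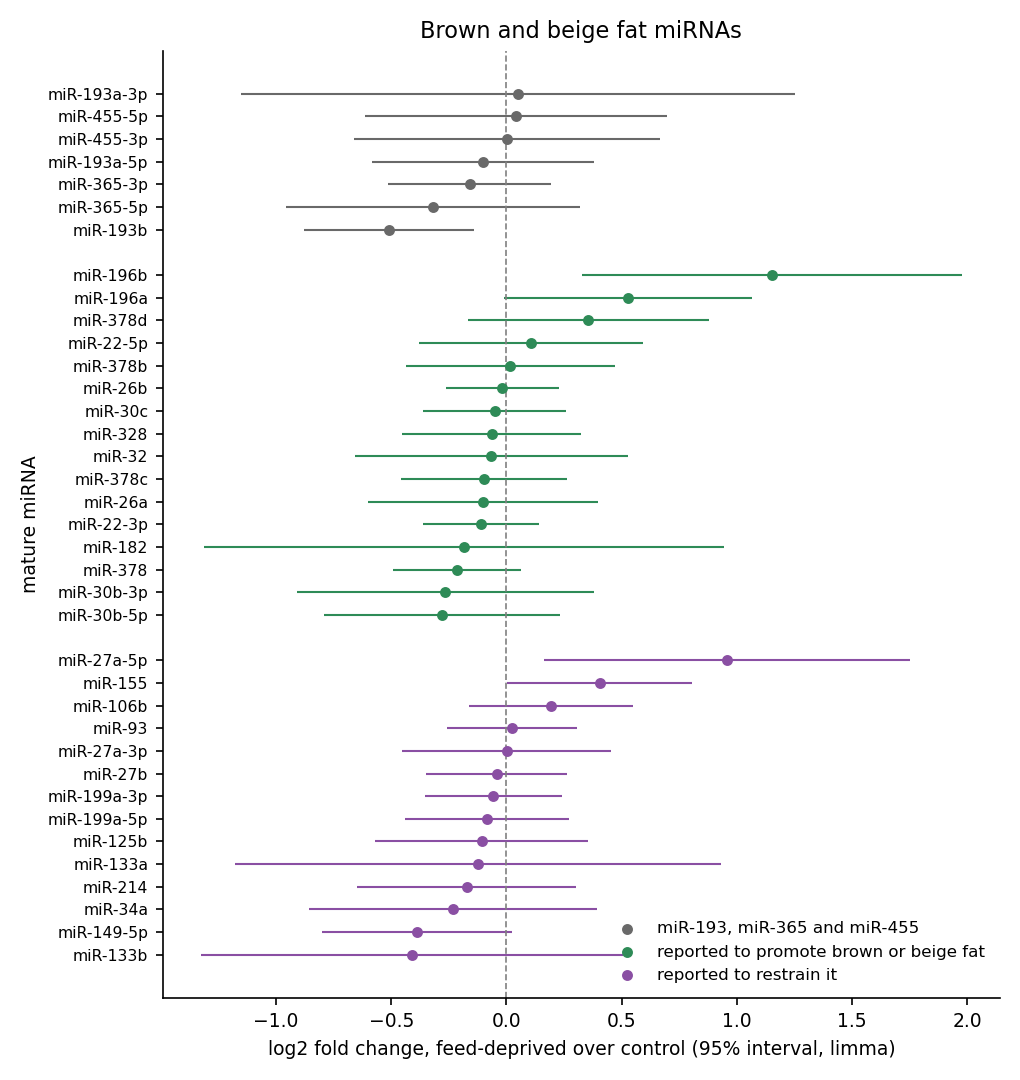
Log2 fold change of feed-deprived over control goats with its 95% interval (limma, 5 controls and 6 feed-deprived goats). Shown are the 7 tested miR-193, miR-365 and miR-455 miRNAs. Also shown are 16 and 14 miRNAs under names reported to promote or restrain brown or beige fat. The interval of miR-193b lies below 0, those of miR-196b, miR-27a-5p and miR-155 above 0, and the others cross or touch it, before adjustment for 360 tests.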

How the data were processed

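Per the labels' protocols, omental fat RNA of 11 goats was made into TruSeq small RNA libraries, with 13 cycles of PCR and single reads of 50 bases. The labels mention no molecular identifiers, so the floors given for libraries without a read cover counting error only. The intervals of the fold changes come from limma and reflect the spread between goats. The authors deposited 1 signal value per mature miRNA and library. No source used here gives the aligner, database or build. In every library 100% of the non-zero values were whole multiples of the smallest (tolerance 0.001 read), so reads were recovered as value over that step, and the steps matched the inverse of DESeq2's size factors within ratios of 0.997 to 1.001. edgeR on these reads called 3 miRNAs.

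Of 637 names 629 were in all libraries and 360 passed edgeR's filterByExpr (minimum count 10). These were compared in R 4.3.3 with limma 3.58.1 (variance trend, robust moderation, pseudocount 1, Benjamini-Hochberg over 360). edgeR 4.0.16, DESeq2 1.42.0, other scalings, filters and pseudocounts, and leaving out each goat were alternatives. Ratios were compared by exact two-sided permutation over 462 splits, and correlations used 100000 permutations, exact with 6 goats. Replicates were numbered in accession order, which pairs no goats. The chi-square between libraries of a group was at least 591 for each degree of freedom, so none was taken for a copy. The miRNAs, the lists and the rules for naming were chosen with earlier results of these data known. The rule named all miRNAs with the 3 numbers, the 3 smallest p-values of each list and the 5 nearest to miR-193b and to miR-365-3p. miR-27a-3p was added after its value was seen, and the tests of miR-365-5p were added after the files were read.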

Additional observations from a re-analysis of the deposited data

Results flagged for a closer look

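Among 26 sets of values, the 2 groups of each of 7 miRNAs and 6 ratios, 3 held a goat that stood apart. For normally spread values chance alone gives about 1 in 20 sets. The levels were examined without taking logs and the sets share goats, so that rate is only a guide. Control replicate 5 stood above the other controls for miR-193a-3p, at 2555 normalised reads against 362 to 730. Control replicate 4 stood above them for miR-193a-5p, at 1442 against 787 to 840. For miR-455-3p feed-deprived replicate 4 was high, at 913 against 409 to 541 in the other feed-deprived goats.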

How the results depend on the processing

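None of the 7 tested miRNAs passed the threshold under any alternative, and none of the 5 ratios did. Of 248 alternative values over 14 results 210 kept sign and side of the threshold, and 38 changed sign, all of them values that did not pass to begin with. The cause of these changes of sign was not tested. The number of the 7 that was called was 0 in each fit without 1 goat and in each other setting. miR-193b stayed negative throughout, from -0.58 (without feed-deprived replicate 5) to -0.41 (without feed-deprived replicate 6) and from -0.69 to -0.35 in other settings, with adjusted p-values from 0.0954 to 0.598. Changes of sign came with upper-quartile factors (miR-193a-3p -0.13, miR-455-3p -0.18, miR-455-5p -0.14), edgeR (miR-193a-3p -0.12, miR-455-3p -0.083), DESeq2 (-0.12 and -0.081) and library totals (miR-193a-5p 0.059, miR-365-3p 0.0028). Without single goats miR-193a-3p ran from -0.17 to 0.53, miR-193a-5p from -0.18 to 0.064, miR-455-3p from -0.17 to 0.26 and miR-455-5p from -0.13 to 0.24. The difference in log2 ratio then ran from -0.46 to -0.24 for miR-193b over miR-365-3p, from -0.99 to -0.30 for miR-193b over miR-193a-3p, from -0.067 to 0.70 for miR-193a-3p over miR-365-3p, from -0.12 to 0.69 for the arms of miR-193a and from -0.21 to 0.12 for those of miR-455. The correlation of miR-193b and miR-365-3p ran from 0.049 to 0.49 without single goats, and was 0.48 with library totals and 0.18 with TMM factors. Without the 2 goats farthest from the median of miR-365-3p it was 0.52. Without the 2 farthest from that of miR-193b it changed sign, to -0.25, a value not among the 248. Over all miRNAs limma called 3 higher and 0 lower with the deposited scaling, 7 and 1 with library totals, 2 and 1 with upper-quartile factors, 0 at a mean of 10 CPM or more, 1 to 4 higher and 0 or 1 lower without 1 goat, and DESeq2 called 9 higher. miR-365-5p was not tested at that mean. No paired analysis was possible because the replicate numbers were assigned here in accession order, not taken from the labels, and each goat was in 1 group. Depth limits only miR-365-5p and miR-193a, the others having 191 reads or more in every library.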
